A study of Mus musculus with 13 samples.

Results

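The 13 libraries of mouse haematopoietic stem cells (HSCs) in this study differed widely in how much RNA of the mitotic machinery they held, and the 6 libraries with the most, called mitotic-high, were set against the 6 with the least, called mitotic-low. The groups were chosen by these libraries' own values: each library was ranked by a mitotic score, the mean of log2(CPM + 1) over Mki67, Top2a, Ccnb1, Cdk1, Birc5 and Kif11, where CPM is the count scaled to one common total of gene counts per library. The mitotic-high group held MUL-HSC replicates 1, 2 and 4, PEM-HSC replicates 4 and 5 and PLT-HSC replicate 3. The mitotic-low group held MUL-HSC replicate 3, PEM-HSC replicates 2, 3 and 6 and PLT-HSC replicates 1 and 2. PEM-HSC replicate 1, at rank 7, was left out of the comparison. The groups were therefore made from measured transcripts of the same libraries, and no treatment or genotype separates them.

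All libraries came from C57BL/6 mice in which 1 Vwf+ HSC had been transplanted per recipient, and reconstitution had been followed for 16 weeks. P-restricted recipients gave the 3 PLT-HSC libraries, PEM-restricted ones the 6 PEM-HSC libraries, and multilineage ones the 4 MUL-HSC libraries. Each library was made from 100 donor-derived cells of the phenotype LSKFlt3-CD150+CD48-CD45.2+Gata1-, which is shared by every group, and polyadenylated RNA was amplified with a Smart-seq+ protocol. The labels do not say how many recipients stand behind the replicates of a class, so the spread between libraries may be technical in part.

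Adult HSCs spend most of their time in quiescence, outside the cell cycle, and few of them divide at any moment. A cell that enters the cycle first makes the enzymes of DNA replication and nucleotide synthesis, whose genes are driven by E2F factors once the RB proteins release them. Before division it makes the cyclins, kinases and spindle proteins of mitosis. Their genes are held down in resting cells by the DREAM complex and later driven by B-MYB and FOXM1, acting at promoter elements called CHR. Promoters of these genes often hold CCAAT boxes too. In a library of pooled cells, more cells in division and more mitotic RNA per cell cannot be told apart.

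Promoters of the genes described here carried these elements unevenly. The letters searched, on both strands within 250 bases before to 50 bases after each RefSeq start site, were TTTGAA or TTCGAA for CHR, CCAAT for the CCAAT box, and TTTNNCGC or TTNGCGC for E2F. The sequences shown belong to cell cycle genes whose values follow. Bub3, H2afz, Mcm6 and Asf1b were taken by rule, as genes with the most kinds of match; Cdca8 and Ccnb2 were chosen after their values were seen. Coordinates are of RefSeq build GRCm38.p6, sequences run 5′ to 3′ on the gene's strand, and capitals mark the matches, which overlap by a base or more in places. Bub3 lies at chr7:131560120-131560419, plus strand; H2afz at chr3:137864237-137864536, plus strand; Cdca8 at chr4:124936868-124937167, minus strand; Ccnb2 at chr9:70421505-70421804, minus strand; Mcm6 at chr1:128359656-128359955, minus strand; and Asf1b at chr8:83955444-83955743, plus strand.
Cdca8: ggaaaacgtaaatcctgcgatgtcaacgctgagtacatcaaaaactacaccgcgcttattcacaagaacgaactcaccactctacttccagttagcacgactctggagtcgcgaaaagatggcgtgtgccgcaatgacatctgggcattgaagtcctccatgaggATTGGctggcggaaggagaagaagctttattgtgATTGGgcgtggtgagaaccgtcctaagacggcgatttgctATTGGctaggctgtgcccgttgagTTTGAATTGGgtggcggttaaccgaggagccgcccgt
Ccnb2: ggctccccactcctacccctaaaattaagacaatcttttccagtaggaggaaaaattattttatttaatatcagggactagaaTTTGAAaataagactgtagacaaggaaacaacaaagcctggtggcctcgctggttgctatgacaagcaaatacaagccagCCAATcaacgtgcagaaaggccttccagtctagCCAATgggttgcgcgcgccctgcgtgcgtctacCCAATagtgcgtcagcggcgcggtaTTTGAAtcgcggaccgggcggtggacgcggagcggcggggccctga
Bub3: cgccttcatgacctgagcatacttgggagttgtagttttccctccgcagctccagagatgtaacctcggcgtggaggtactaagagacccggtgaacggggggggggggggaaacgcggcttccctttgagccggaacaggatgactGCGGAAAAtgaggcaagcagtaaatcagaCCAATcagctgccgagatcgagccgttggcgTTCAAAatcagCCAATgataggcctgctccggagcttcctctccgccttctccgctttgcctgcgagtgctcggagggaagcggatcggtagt
H2afz: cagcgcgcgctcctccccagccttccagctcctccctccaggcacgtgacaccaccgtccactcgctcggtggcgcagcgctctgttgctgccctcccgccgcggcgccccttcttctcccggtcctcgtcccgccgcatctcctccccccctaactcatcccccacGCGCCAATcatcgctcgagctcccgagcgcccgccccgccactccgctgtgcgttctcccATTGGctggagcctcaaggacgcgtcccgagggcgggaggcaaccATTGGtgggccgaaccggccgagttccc
Asf1b: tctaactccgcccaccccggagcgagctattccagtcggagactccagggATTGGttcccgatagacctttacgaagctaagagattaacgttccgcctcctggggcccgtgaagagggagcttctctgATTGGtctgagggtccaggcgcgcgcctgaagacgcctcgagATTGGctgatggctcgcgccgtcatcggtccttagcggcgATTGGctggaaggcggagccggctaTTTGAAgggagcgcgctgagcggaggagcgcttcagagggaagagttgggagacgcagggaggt
Mcm6: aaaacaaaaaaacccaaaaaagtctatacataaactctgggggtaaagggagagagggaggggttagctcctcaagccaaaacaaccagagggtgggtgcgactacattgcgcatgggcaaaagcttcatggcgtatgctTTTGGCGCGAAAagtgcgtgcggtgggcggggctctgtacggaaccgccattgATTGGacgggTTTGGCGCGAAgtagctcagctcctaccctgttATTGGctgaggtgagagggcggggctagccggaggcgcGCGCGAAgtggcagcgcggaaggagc
The Cdca8 promoter held 1 CHR match and 4 CCAAT matches, and that of Ccnb2 held 2 CHR and 3 CCAAT matches; neither held E2F letters in this window. The Mcm6 promoter had the reverse make-up, with 7 E2F matches, 2 CCAAT matches and no CHR match. Several of the 7 overlap each other, so they are not 7 separate sites. Asf1b, a histone chaperone gene of replication, carried 1 CHR and 4 CCAAT matches. Bub3 held 1 CHR, 2 CCAAT and 1 E2F match, and H2afz held 3 CCAAT and 1 E2F match and no CHR match. Genes taken for having the most kinds of match cannot show whether the letters divide by role.

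Across lists, CHR letters were found in 27 of 34 promoters of spindle and cytokinesis genes (79.4%), 17 of 24 of mitotic kinases, cyclins and checkpoint genes (70.8%) and 16 of 31 of kinetochore and centromere genes (51.6%). The share over all 32851 promoters in the table was 19.2%. Chromosome structure genes had both, with CHR letters in 13 of 28 promoters (46.4%) and E2F letters in 14 of 28 (50%), the highest E2F share among the cell cycle lists. Replication genes had CHR letters in 12 of 57 promoters (21.1%), near that background, and E2F letters in 26 of 57 (45.6%), where 9.87% of all promoters had them. CCAAT letters were in 79.2% of the promoters of mitotic kinases, cyclins and checkpoint genes and in 37.4% of all promoters. With the exact letters TTTGAA alone, the CHR share was 79.4% for spindle genes, 58.3% for mitotic kinases and 17.9% over all promoters. A match is a description of letters and not evidence of binding.

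**Figure D1:**
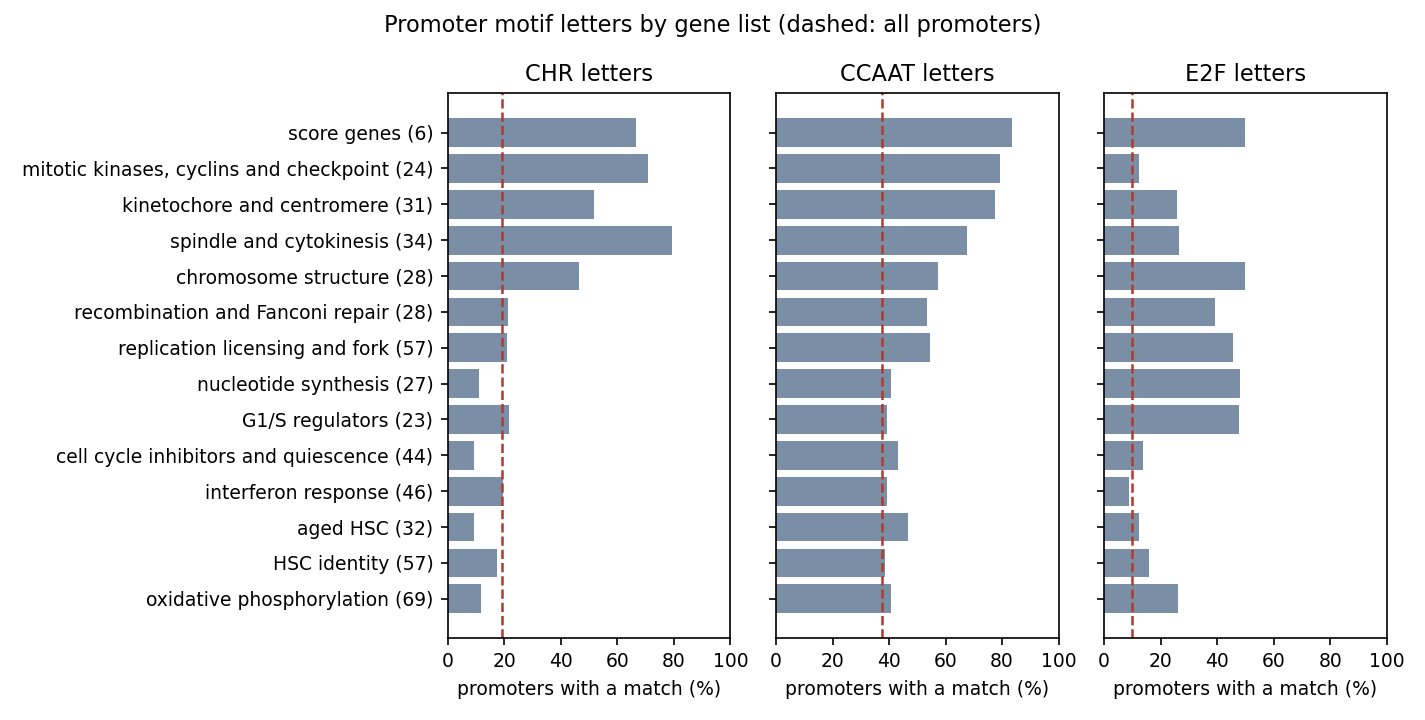
Percentage of promoters, 250 bases before to 50 after the RefSeq start site, with CHR, CCAAT or E2F letters, for each gene list (number of promoters in brackets). The dashed line is the share of all 32851 promoters. CHR shares are 46.4% to 79.4% in the mitotic kinase, kinetochore, spindle and chromosome structure lists, and E2F shares are above the dashed line in every cell cycle list, with 50% for chromosome structure and 12.5% for mitotic kinases.

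The mitotic score was 5.21 to 6.75 in mitotic-high libraries, mean 6.02 ± 0.54 (SD, n = 6), and 1.46 to 4.99 in mitotic-low libraries, mean 3.46 ± 1.36 (SD, n = 6). At the edges of the groups stood PEM-HSC replicate 5 at 5.21, the library left out at 5.17 and PEM-HSC replicate 3 at 4.99, so the boundary runs through near neighbours. The spread was wider at the bottom, where PLT-HSC replicate 1 scored 1.46 and MUL-HSC replicate 3 scored 2.52. Scaling by TMM gave the same groups.

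Some of the score genes were at or near 0 in the lowest libraries, while Cdk1 was detected in every library. Birc5, a subunit of the chromosomal passenger complex, had 75.6, 123 and 183 CPM as lowest, median and highest value in mitotic-high libraries, against 0, 16.8 and 47.3 CPM in mitotic-low libraries. Kif11, the motor that pushes spindle poles apart, had 16.9, 36.4 and 86.1 CPM in mitotic-high and 0, 3.71 and 15.1 CPM in mitotic-low libraries. Mki67, the proliferation marker Ki-67, had 27.0, 42.1 and 74.4 CPM in mitotic-high and 0.0345, 11.97 and 17.2 CPM in mitotic-low libraries. Cdk1, the kinase that starts mitosis, did not separate fully: it had 57.6, 119 and 176 CPM in mitotic-high and 15.0, 48.0 and 80.0 CPM in mitotic-low libraries. Top2a, which untangles replicated DNA, had 20.6, 63.5 and 111 CPM in mitotic-high and 2.13, 5.60 and 61.8 CPM in mitotic-low libraries. Ccnb1, the cyclin partner of Cdk1, had 36.3, 48.6 and 158 CPM in mitotic-high and 5.51, 14.4 and 36.0 CPM in mitotic-low libraries. These values chose the groups and are given without a test.

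**Figure D2:**
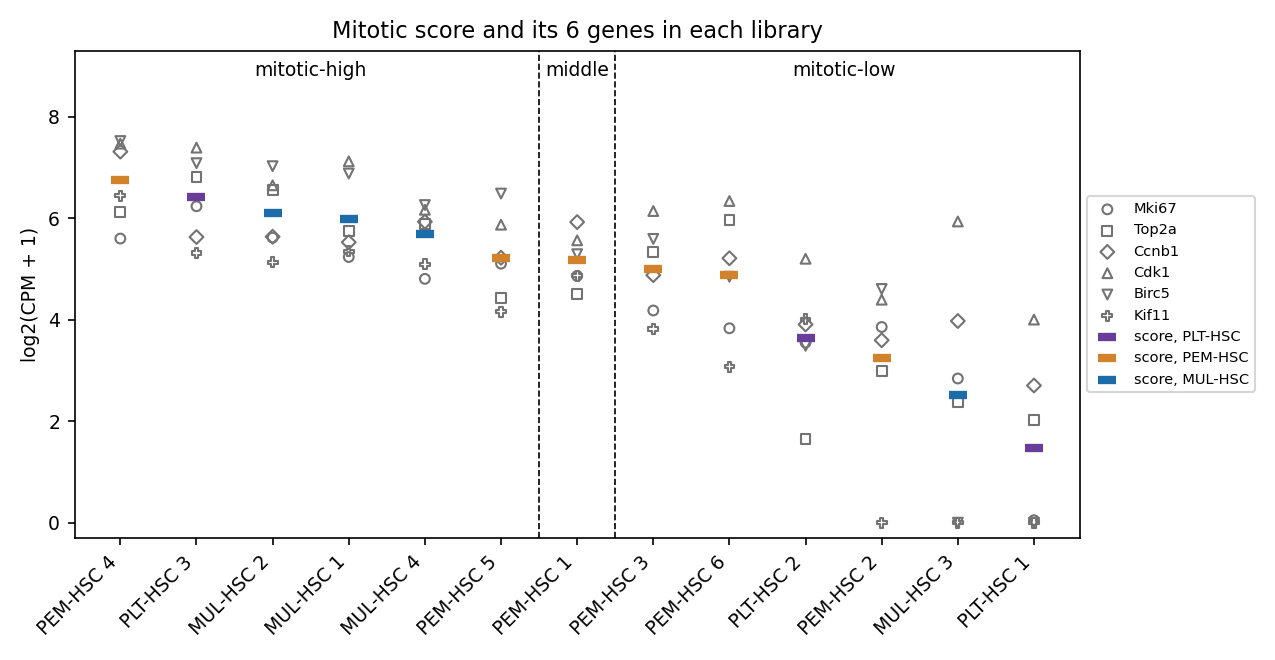
Mitotic score (coloured bars, by reconstitution class) and log2(CPM + 1) of its 6 genes (open symbols) in each of the 13 libraries, in order of score. Scores are 5.21 to 6.75 in mitotic-high and 1.46 to 4.99 in mitotic-low libraries.

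Reconstitution class, which comes from the labels and was not used to rank the libraries, had libraries on both sides of the split in each case. The 3 PLT-HSC libraries averaged a score of 3.84 ± 2.48 (SD), the 6 PEM-HSC libraries one of 5.04 ± 1.12, and the 4 MUL-HSC libraries one of 5.07 ± 1.71. PLT-HSC minus MUL-HSC was −1.24, two-sided exact permutation p = 0.429. PEM-HSC minus MUL-HSC was −0.03, exact p = 0.957, and PLT-HSC minus PEM-HSC was −1.20, exact p = 0.357; adjusted over the 3 pairs these are 0.643, 0.957 and 0.643. These p-values do not show that the classes were alike, and PLT-HSC libraries held both the lowest score and the second highest, 6.41.

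Of 3 measures of library depth and quality, none differed beyond the spread between libraries. Gene counts were 22192295 to 41367057 in mitotic-high and 16371921 to 29509901 in mitotic-low libraries, exact p = 0.225 within class. Detected genes averaged 11918 ± 413 in mitotic-high and 11871 ± 188 in mitotic-low libraries (exact p = 0.817). Spike-in counts made up 0.0191% to 0.0612% of counts in mitotic-high and 0.0302% to 0.0475% in mitotic-low libraries. On the log2 scale of spike-in over gene counts the difference was −0.44, exact p = 0.183, or 0.338 adjusted over the 3 measures. Without MUL-HSC replicate 3 it was −0.52 with exact p = 0.0333. The smallest p that 120 permutations within class can give is 0.00833. Globin genes, Cd3d, Cd3e, Cd3g and Ms4a1 were at 0 counts in every library.

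Mitotic kinase, kinetochore and spindle genes beyond the score genes were higher in mitotic-high libraries by the widest medians among the lists compared. Recombination, chromosome structure, replication, nucleotide and G1/S genes followed with narrower ones. No single gene passed the test. The edgeR quasi-likelihood test with class as covariate was run on 13036 genes, of which 13030 are not score genes, and 0 of these (0%) were called at an adjusted p under 0.05; the smallest adjusted p was 0.191. At an unadjusted p under 0.05 there were 505 genes with higher values (3.88%) and 399 with lower values (3.06%). DESeq2 called 133 genes higher and 103 lower, and limma-voom called 0. The groups were drawn by transcripts of one process, so the counts of cell cycle genes that follow describe what goes with those transcripts and are not independent support for it.

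Of 266 tested members of the 8 cell cycle lists, 238 (89.5%) had a positive log2 fold change, with a median of 0.96. Over all 13030 genes 51.1% were positive, with a median of 0.02. Outside those lists 6414 of 12764 genes (50.3%) were positive and the median was 0.00. At an unadjusted p under 0.05, 84 cell cycle genes (31.6%) were higher and 2 were lower. Values of the groups did not overlap for 20 of the 266 (7.52%), all higher in mitotic-high libraries, where the share over all genes was 0.43% higher and 0.192% lower. Members of the cell cycle lists were 20 of the 56 genes whose values were all higher (35.7%) and 0 of the 25 whose values were all lower. The other 36 higher genes were outside these lists, which do not hold every gene of the cell cycle. Without PLT-HSC replicate 3, the one mitotic-high library of its class, the median over these lists was 0.59 with 210 of 265 positive. Among PEM-HSC libraries alone, 2 mitotic-high against 3 mitotic-low, it was 0.34 with 181 of 261 positive.

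**Figure D3:**
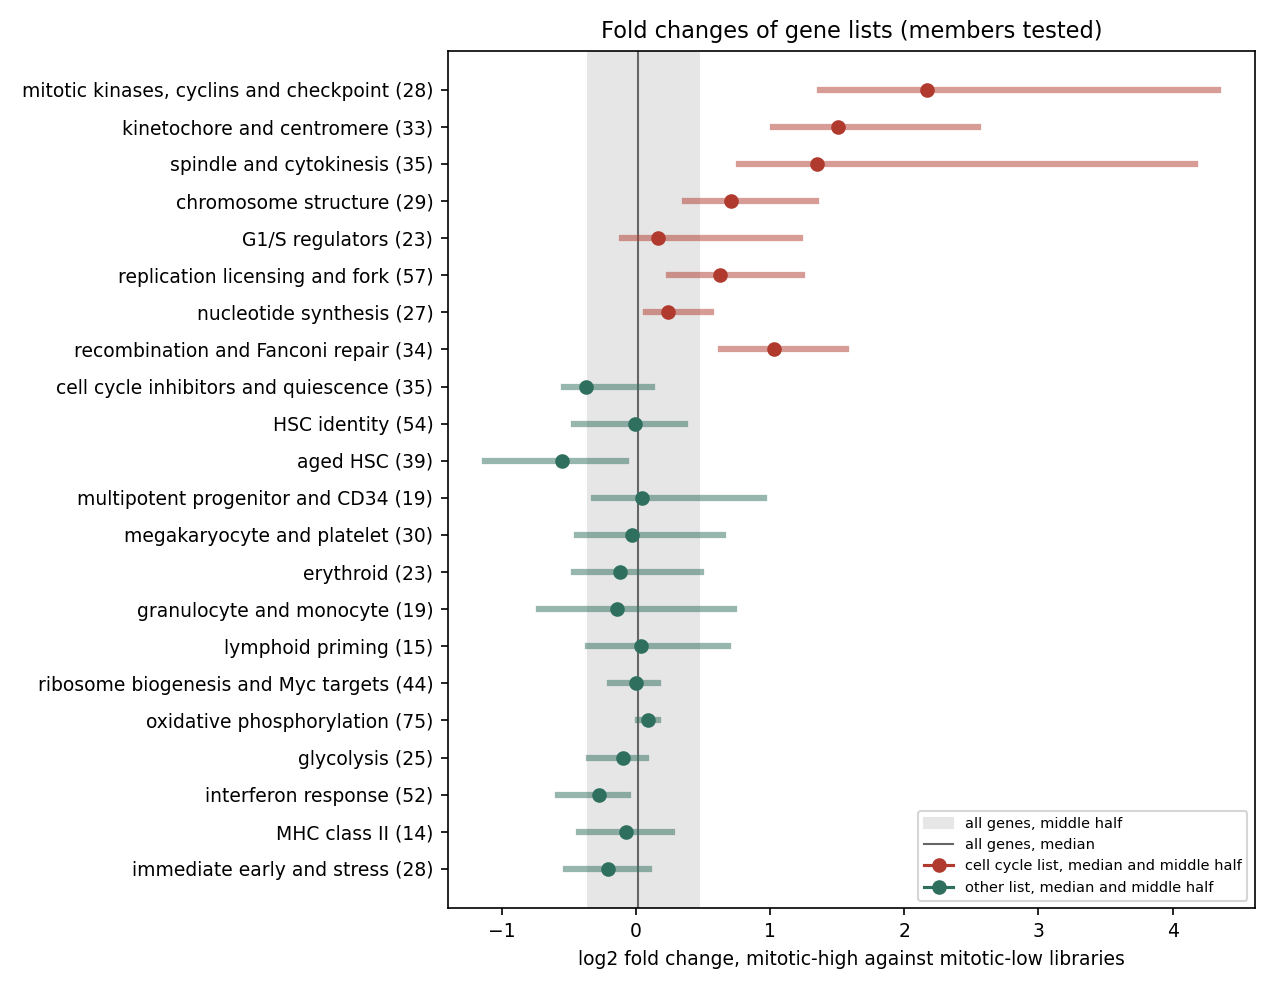
Median (point) and middle range from the lower to the upper quartile (bar) of log2 fold changes, mitotic-high against mitotic-low, for each list, with the number of members tested in brackets. The mitotic kinase, kinetochore and spindle lists lie farthest right, with a median of 2.17 for mitotic kinases, cyclins and checkpoint genes, beside 0.02 for all genes (grey line and band).

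Among mitotic kinases, cyclins and checkpoint genes, 27 of 28 tested members had a positive fold change, with a median of 2.17. Cks1b, a small subunit of cyclin-dependent kinases, had 185, 292 and 345 CPM in mitotic-high libraries, against 51.0, 150 and 164 CPM in mitotic-low libraries, a log2 fold change of 1.10 (SE 0.24). Mad2l1, the checkpoint protein that holds mitosis until chromosomes are attached, had 109, 144 and 251 CPM in mitotic-high and 30.2, 66.2 and 93.9 CPM in mitotic-low libraries (1.12, SE 0.27). For both genes the groups did not overlap. Ccnb2, a mitotic cyclin whose promoter is shown above, had 147, 247 and 340 CPM in mitotic-high and 10.2, 61.1 and 221 CPM in mitotic-low libraries (1.83, SE 0.49), and PEM-HSC replicate 3 was the mitotic-low library that reached the mitotic-high range. Bub3, the most abundant gene of the list, differed less: it had 510, 600 and 712 CPM in mitotic-high and 366, 568.2 and 641 CPM in mitotic-low libraries (0.11, SE 0.16), and its promoter window held CHR, CCAAT and E2F letters.

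Kinetochore and centromere genes had positive fold changes in 32 of 33 members, with a median of 1.503. Cdca8, or borealin, which works beside Birc5 in the chromosomal passenger complex, had 49.5, 100.03 and 170 CPM in mitotic-high and 11.1, 19.7 and 50.2 CPM in mitotic-low libraries, a log2 fold change of 2.22 (SE 0.40). Cenpa, the histone H3 variant of centromeres, had 65.0, 99.5 and 184 CPM in mitotic-high and 15.0, 30.1 and 82.2 CPM in mitotic-low libraries (1.60, SE 0.39). Spc25, of the NDC80 complex that grips microtubules, had 67.0, 156 and 200.4 CPM in mitotic-high and 0, 19.9 and 58.0 CPM in mitotic-low libraries without overlap. The exception was Zwint, which helps to anchor checkpoint proteins at kinetochores: it had 101, 126 and 194 CPM in mitotic-high and 129, 148 and 171 CPM in mitotic-low libraries (−0.27, SE 0.22).

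Spindle and cytokinesis genes had positive fold changes in 33 of 35 members, with a median of 1.35. Tubb5, a beta-tubulin, had 570, 595 and 807 CPM in mitotic-high and 318, 343 and 525.9 CPM in mitotic-low libraries, without overlap (0.65, SE 0.18). Stmn1, which destabilises microtubules, had 377, 564 and 824 CPM in mitotic-high and 174, 288 and 494 CPM in mitotic-low libraries (0.78, SE 0.26). Tubb4b, another beta-tubulin, had 211, 272 and 444 CPM in mitotic-high and 231, 276 and 397 CPM in mitotic-low libraries, and it overlapped where Tubb5 did not. Fam64a, a regulator of the metaphase to anaphase step, had 10.03, 43.4 and 70.6 CPM in mitotic-high and 0, 5.11 and 11.4 CPM in mitotic-low libraries.

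Chromosome structure genes, which hold and compact the chromatids, had positive fold changes in 28 of 29 members, with a median of 0.71, and 5 of them (17.2%) did not overlap between the groups, where 0.43% of all genes were higher without overlap. Rad21, the cohesin subunit cut at anaphase, had 93.0, 129 and 239 CPM in mitotic-high and 36.0, 75.3 and 84.5 CPM in mitotic-low libraries (1.22, SE 0.22). Smc2, a core condensin subunit, had 74.3, 87.4 and 183 CPM in mitotic-high and 24.5, 40.1 and 63.3 CPM in mitotic-low libraries (1.34, SE 0.31). H2afz, the histone variant H2A.Z, had 633, 840.2 and 995 CPM in mitotic-high and 280.3, 498 and 625.45 CPM in mitotic-low libraries (0.71, SE 0.22). In all 3 genes every mitotic-high library was above every mitotic-low one.

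Genes of S phase come next. Replication licensing and fork genes had positive fold changes in 50 of 57 members, with a median of 0.62. Pcna, the sliding clamp of DNA polymerase, had 226, 327 and 540 CPM in mitotic-high and 136, 185 and 325 CPM in mitotic-low libraries (0.63, SE 0.26). Mcm6, a helicase subunit and the gene with the E2F-rich promoter, had 108, 401 and 538 CPM in mitotic-high and 179, 243 and 535 CPM in mitotic-low libraries (0.24, SE 0.37), and PEM-HSC replicate 5 was the mitotic-high library below all mitotic-low ones. Asf1b, the histone chaperone gene, had 96.4, 137 and 167 CPM in mitotic-high and 8.06, 17.5 and 107 CPM in mitotic-low libraries (2.51, SE 0.52).

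Nucleotide synthesis genes had positive fold changes in 23 of 27 members but a median of 0.24. Rrm2, the S phase subunit of ribonucleotide reductase, had 101, 131 and 175 CPM in mitotic-high and 24.9, 37.1 and 85.0 CPM in mitotic-low libraries (1.54, SE 0.26), without overlap. Paics, an enzyme of purine synthesis, had 616, 722 and 999 CPM in mitotic-high and 463, 561 and 583 CPM in mitotic-low libraries (0.41, SE 0.17), also without overlap. Nme1, a nucleoside diphosphate kinase, had 654, 775 and 980.3 CPM in mitotic-high and 439.6, 669 and 763 CPM in mitotic-low libraries (0.19, SE 0.19). The list's median was 0.16 without MUL-HSC replicate 3 and 0.42 without PEM-HSC replicate 5.

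Recombination and Fanconi repair genes had positive fold changes in 29 of 34 members, with a median of 1.03, which was 0.66 without PLT-HSC replicate 3. Hells, a chromatin remodeller, had 64.1, 97.5 and 138 CPM in mitotic-high and 29.0, 42.2 and 107 CPM in mitotic-low libraries (0.77, SE 0.34). Atad2, a chromatin-associated ATPase, had 39.6, 78.8 and 169 CPM in mitotic-high and 9.06, 34.2 and 57.8 CPM in mitotic-low libraries (1.43, SE 0.50).

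G1/S regulators, which act where a cell commits to the cycle, had the smallest share of positive members of the cell cycle lists, 16 of 23, and a median of 0.17. E2f8, an E2F family repressor made in S phase, had 7.68, 12.2 and 40.6 CPM in mitotic-high libraries and at most 2.15 CPM in mitotic-low libraries, with a median of 0 CPM in mitotic-low libraries. Cdk4, the kinase of the D cyclins, had 889, 1056 and 1338 CPM in mitotic-high and 561, 858 and 1090 CPM in mitotic-low libraries (0.20, SE 0.17). Ccnd2, a D cyclin, had 210.1, 268 and 393 CPM in mitotic-high and 284, 319 and 545 CPM in mitotic-low libraries (−0.45, SE 0.21). Ccnd2 and Ccne1 were the 2 members of the cell cycle lists with lower values in mitotic-high libraries at an unadjusted p under 0.05. Without PLT-HSC replicate 3 the list's median was 0.0066.

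**Figure D4:**
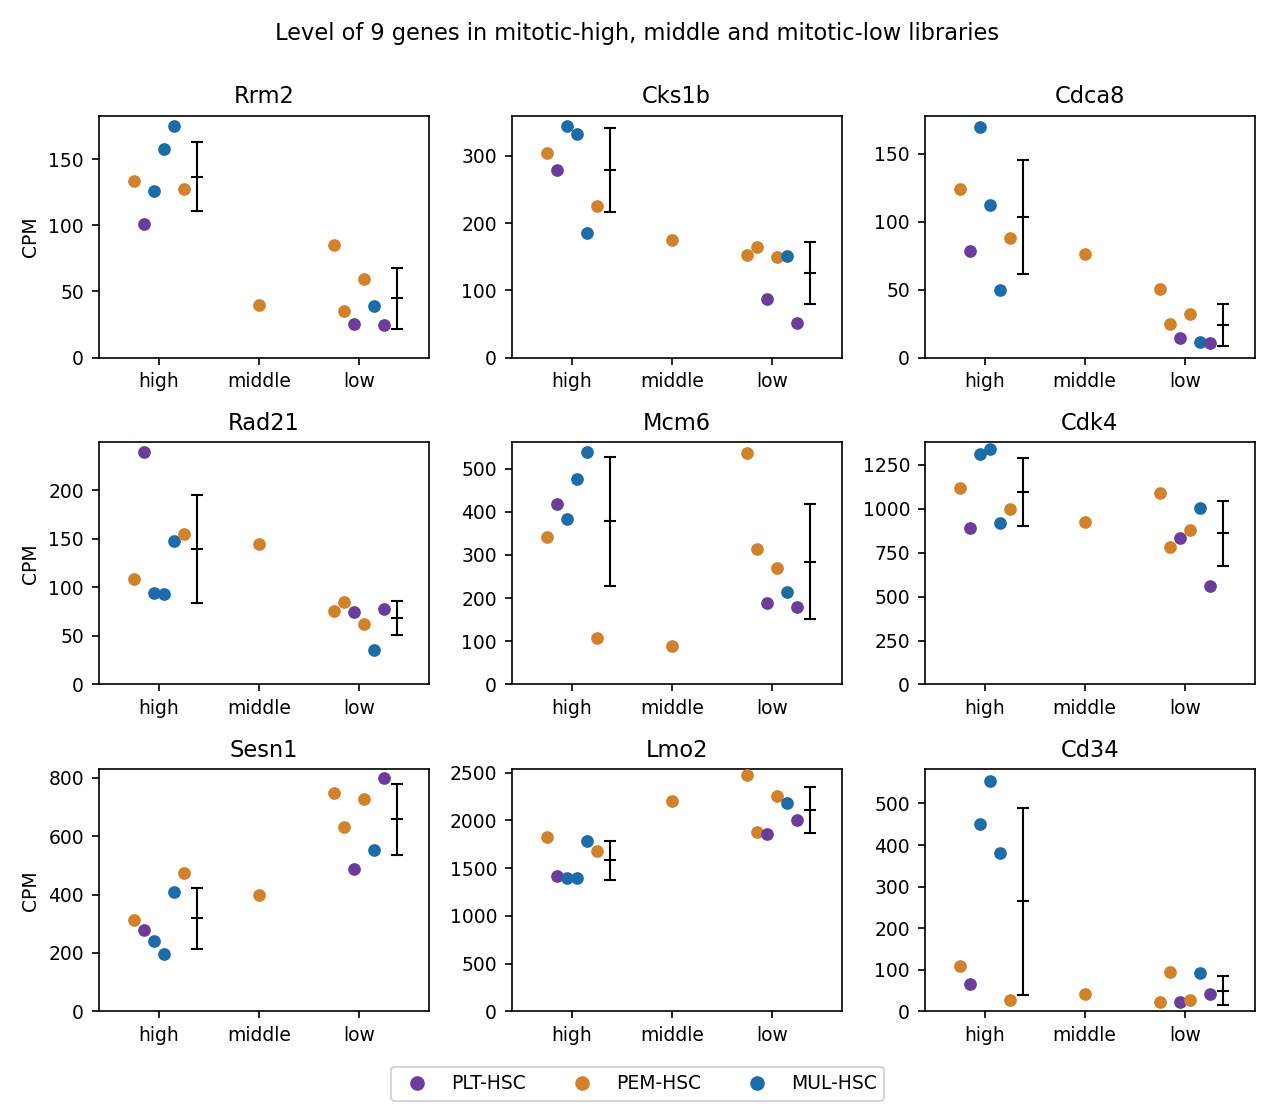
CPM of 9 genes in each mitotic-high, middle and mitotic-low library, coloured by class, with mean and SD of the 6 libraries of each group (black). Rrm2, Cks1b and Rad21 do not overlap between the groups and are higher in mitotic-high libraries, Sesn1 and Lmo2 do not overlap and are lower, and Mcm6 and Cdk4 overlap; Cd34 is highest in 3 mitotic-high MUL-HSC libraries.

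The library left out of the groups, PEM-HSC replicate 1, had unlike ranks among the cell cycle lists. Counted from the lowest of 13 libraries, its list mean stood at rank 9 for spindle genes, 7 for mitotic kinases and for chromosome structure, 6 for kinetochore genes and 5 for G1/S regulators. It stood at rank 3 for each of replication, nucleotide synthesis and recombination. It had 128 CPM of Cenpa, above the mitotic-high median of 99.5 CPM, and 42.2 CPM of Spc25, between the medians of the groups. It had 89.1 CPM of Mcm6 and 22.1 CPM of Tyms, thymidylate synthase, both below the lowest mitotic-low values of 179 and 31.5 CPM. PEM-HSC replicates 5 and 3, the nearest libraries on either side, did not follow their groups in every list. Relative to the mean of the 13 libraries, the list means of PEM-HSC replicate 5 were 0.08 for mitotic kinases, 0.19 for kinetochore, −0.16 for spindle and −0.20 for replication genes. Those of PEM-HSC replicate 3 were 0.36 for mitotic kinases, 0.01 for kinetochore, 0.15 for spindle and 0.53 for replication genes, so the mitotic-low library was the higher one in 3 of these 4 lists.

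Within PEM-HSC libraries the medians of the cell cycle lists were smaller and unequal. The median log2 fold change there was 1.08 for mitotic kinases, 0.99 for kinetochore genes and 0.70 for spindle genes. It was 0.40 for chromosome structure genes, with 22 of 29 positive, and 0.35 for recombination and Fanconi repair genes, with 21 of 34 positive. It was 0.07 for G1/S regulators, 0.05 for replication genes, with 31 of 56 positive, and −0.04 for nucleotide synthesis genes, with 13 of 27 positive. Over all genes the median in those libraries was −0.01. A difference between classes was not tested.

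**Figure D5:**
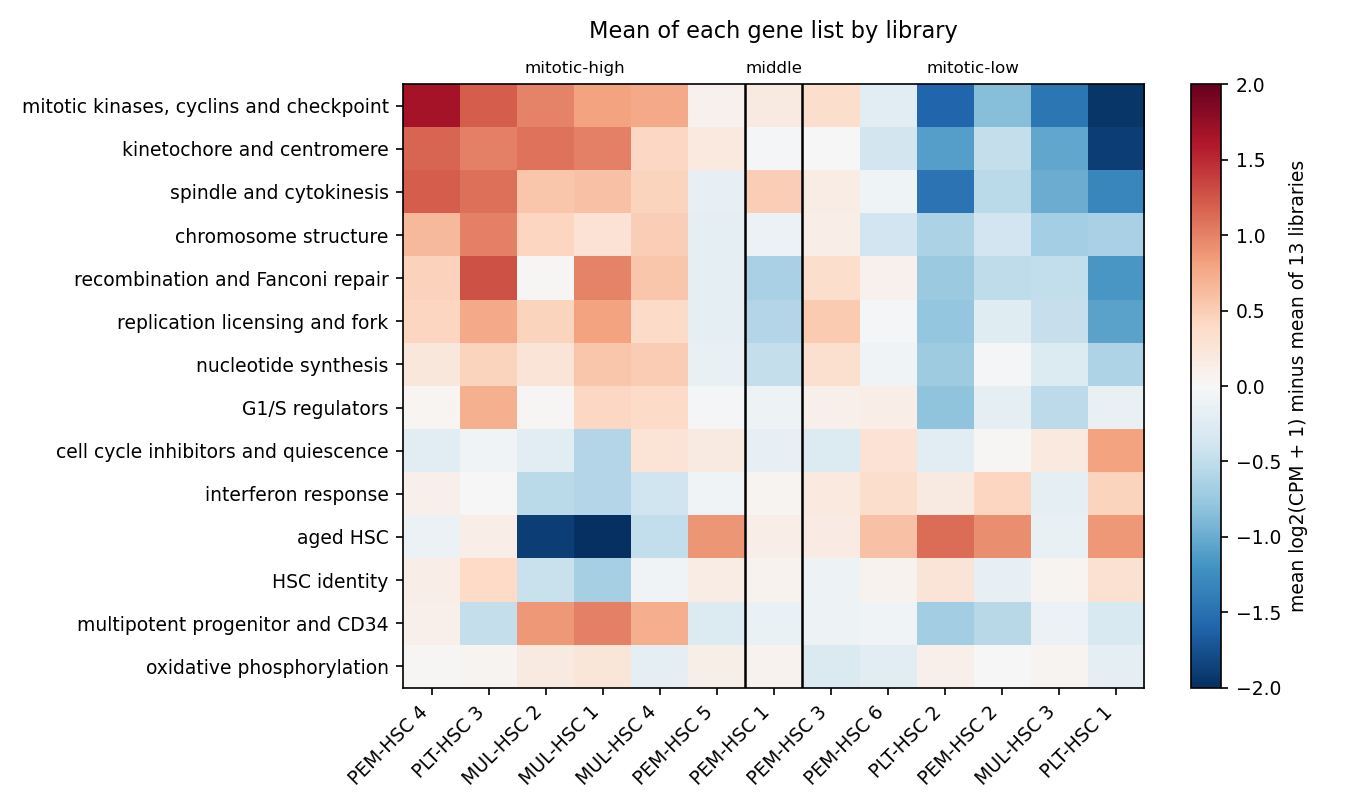
Mean log2(CPM + 1) of the tested genes of each list in each library, minus the mean of the 13 libraries, in order of mitotic score. For the kinetochore list all 6 mitotic-high libraries lie above every mitotic-low one, against 2 for the replication list, and MUL-HSC 1 and 2 have the lowest means of the aged HSC list, −2.17 and −1.88.

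Outside the cell cycle lists, the genes with the smallest p were of mixed function and none was called by edgeR. D10Wsu102e had 47.7, 73.2 and 96.9 CPM in mitotic-high and 10.1, 24.1 and 41.6 CPM in mitotic-low libraries, a log2 fold change of 1.89 (SE 0.31, adjusted p = 0.191). Mycbp2, a large ubiquitin ligase, had 123, 155 and 263 CPM in mitotic-high and 58.7, 86.2 and 109.98 CPM in mitotic-low libraries (1.04, SE 0.18, adjusted p = 0.191). Aebp2, a cofactor of the Polycomb complex PRC2, had 48.5, 67.7 and 83.4 CPM in mitotic-high and 16.4, 27.3 and 32.4 CPM in mitotic-low libraries (1.35, SE 0.28, adjusted p = 0.306). These 3 genes did not overlap between the groups. Cntln, a centriole linker protein (1.63, SE 0.30), and Sptbn1, a spectrin (0.96, SE 0.19), completed the 5 ranked genes and overlapped.

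Among genes with lower values, Sesn1, a stress-induced sestrin that restrains mTORC1, came first. It had 197, 296 and 475 CPM in mitotic-high and 488, 678 and 799 CPM in mitotic-low libraries, without overlap (−1.01, SE 0.21, adjusted p = 0.306). With the score as a continuous covariate over 13 libraries, Sesn1 had an edgeR adjusted p of 0.0342. DESeq2, run on the mitotic-high and mitotic-low groups, gave an adjusted p of 0.000404. With spike-in scaling, which moved the median of all genes to 0.63, Sesn1 had a log2 fold change of −0.37 (edgeR adjusted p = 0.636). Over all alternatives its adjusted p ran up to 1, reached without PLT-HSC replicate 3. Uba7, the activating enzyme for ISG15, had 83.4, 288 and 389 CPM in mitotic-high and 497, 556 and 649 CPM in mitotic-low libraries (−1.04, SE 0.24, adjusted p = 0.382). Rbpms2, an RNA-binding protein, had 25.9, 47.3 and 61.1 CPM in mitotic-high and 79.8, 89.3 and 129 CPM in mitotic-low libraries (−1.10, SE 0.26, adjusted p = 0.382). Pdp1, a pyruvate dehydrogenase phosphatase (−1.17, SE 0.26), and Minpp1, an inositol polyphosphate phosphatase (−0.96, SE 0.22), overlapped.

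Genes of quiescence and cycle arrest leaned to lower values. Of 35 tested cell cycle inhibitors and quiescence genes, 25 had a negative fold change, with a median of −0.37, and 2 were lower at an unadjusted p under 0.05, a number near the background, since 3.06% of all genes were. One of these was Cited2, a transcriptional coregulator needed for HSC maintenance, chosen after its values were seen. It had 183, 314 and 382 CPM in mitotic-high and 373, 434 and 719 CPM in mitotic-low libraries. The list's 2 most abundant members, Tsc22d1 and Tsc22d3, had log2 fold changes of −0.21 (SE 0.28) and −0.38 (SE 0.33), and both overlapped. Without PLT-HSC replicate 1, the library with the lowest score, the list's median was −0.04.

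Interferon response genes were also lower in most cases, 40 of 52, with a median of −0.27. Of these, 9 had an unadjusted p under 0.05 (all lower) and 3, Ifi47, Iigp1 and Bst2, did not overlap. Over all genes 3.06% were lower at that p and 0.192% were lower without overlap. Ifi47, an interferon-induced GTPase, had 481, 599 and 734 CPM in mitotic-high and 821, 908 and 1192 CPM in mitotic-low libraries (−0.65, SE 0.18, adjusted p = 0.476). Iigp1, a GTPase of the same family, had 78.6, 181 and 265 CPM in mitotic-high and 277, 387 and 950.1 CPM in mitotic-low libraries (−1.13, SE 0.33, adjusted p = 0.546). Of the 2 most abundant members, Ifitm3 had a log2 fold change of −0.31 (SE 0.25), and Ly6e had 1906, 2251 and 3422 CPM in mitotic-high and 2245, 2794 and 5231 CPM in mitotic-low libraries (−0.26, SE 0.24). The list's median was −0.16 without PLT-HSC replicate 3 and −0.12 among PEM-HSC libraries alone.

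Genes of HSC identity showed no common direction: 27 of 54 were positive and their median was −0.01. Of its members, 3 were higher and 6 lower at an unadjusted p under 0.05, where 3.88% and 3.06% of all genes were. Lmo2, a partner of SCL in the HSC programme, had 1394, 1549 and 1821 CPM in mitotic-high and 1858, 2093 and 2481 CPM in mitotic-low libraries, without overlap (−0.46, SE 0.13, adjusted p = 0.527). Kit, the stem cell factor receptor, had 280, 381 and 647 CPM in mitotic-high and 187, 245 and 417 CPM in mitotic-low libraries (0.70, SE 0.20, adjusted p = 0.527). Slamf1, which encodes the sorted marker CD150, had 32.2, 98.2 and 201 CPM in mitotic-high and 109, 238 and 326 CPM in mitotic-low libraries (−0.96, SE 0.32, adjusted p = 0.634). Procr, the HSC marker EPCR, overlapped and had 94.7, 152 and 287 CPM in mitotic-high and 196, 225 and 281 CPM in mitotic-low libraries (−0.45, SE 0.29, adjusted p = 0.846).

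Genes reported to be raised in aged HSCs were lower in 31 of 39 cases, with a median of −0.55. MUL-HSC replicates 1 and 2 had the lowest list means, −2.17 and −1.88. The other mitotic-high libraries ran from −0.49 to 0.88, against −0.16 to 1.11 in mitotic-low libraries. Without MUL-HSC replicates 1 and 2 the list's median was −0.26, with 10 of 39 positive. Among PEM-HSC libraries alone it was 0.02 with 20 of 39 positive. Without MUL-HSC replicate 3 it was −0.21 and without PEM-HSC replicate 5 it was −1.01. The list's 2 most abundant members, Cd74 and Nupr1, had log2 fold changes of −0.82 (SE 0.44) and −0.55 (SE 0.54), and both overlapped. Selp, P-selectin, was chosen after its values were seen. It had 18.4, 141 and 180.1 CPM in mitotic-high and 158, 307 and 465 CPM in mitotic-low libraries (−1.14, SE 0.39, adjusted p = 0.646).

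Cd34, a surface protein of multipotent progenitors and activated HSCs, was highest in 3 MUL-HSC libraries. It had 26.1, 244 and 555 CPM in mitotic-high and 21.7, 33.9 and 95.4 CPM in mitotic-low libraries (1.04, SE 0.48, adjusted p = 0.711). The 3 values above 300 CPM were those of the mitotic-high MUL-HSC replicates 1, 2 and 4, whereas PEM-HSC replicate 5 had the lowest mitotic-high value. Flt3, whose protein the sort excluded, had at most 39.2 CPM in mitotic-high and at most 0.953 CPM in mitotic-low libraries, and MUL-HSC replicate 2 held the highest value. Cd48, also excluded as a protein, had 0, 5.32 and 59.0 CPM in mitotic-high and 0, 3.24 and 10.99 CPM in mitotic-low libraries. Its log2 fold change was −1.16 (SE 2.52), and MUL-HSC replicate 1 held the highest value. Gata1 had 5.59, 16.6 and 27.6 CPM in mitotic-high and 0, 4.00 and 22.4 CPM in mitotic-low libraries. The multipotent progenitor and CD34 list had a median of 0.04, with 12 of 19 members positive. That median was 0.60 when class was not a covariate. Prtn3 and Myc, the list's 2 most abundant members, had log2 fold changes of 0.04 (SE 0.35) and 0.0009 (SE 0.23). Relative to the mean of the 13 libraries, list means were 1.01, 0.86 and 0.73 in MUL-HSC replicates 1, 2 and 4. They were −0.47 to 0.11 in other mitotic-high and −0.69 to −0.06 in mitotic-low libraries. The part of progenitor transcripts in the mitotic differences was not tested.

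Growth and energy genes differed little. Ribosome biogenesis and Myc target genes had 22 of 44 positive fold changes, with a median of 0.00. Oxidative phosphorylation genes were positive in 60 of 75 cases but by a median of 0.09, and the median was −0.01 without PEM-HSC replicate 5. Glycolysis genes had a median of −0.10, and among them Aldoa, aldolase A, had 979.99, 1039 and 1290 CPM in mitotic-high and 1140, 1410 and 1644 CPM in mitotic-low libraries (−0.43, SE 0.15, adjusted p = 0.646). Lineage lists lay near 0, with medians of −0.03 for megakaryocyte and platelet, −0.12 for erythroid, −0.14 for granulocyte and monocyte and 0.04 for lymphoid priming genes. MHC class II genes had a median of −0.07, and immediate early and stress genes of −0.21. Over the fits that each left out a library, these medians ran from −0.28 to 0.04 and from −0.57 to 0.02.

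Summed levels of markers of other cell types differed between the lists, and were lowest for erythroblast and neutrophil markers. The summed level of 11 erythroblast markers was 0 to 17.1 CPM in mitotic-high and 0 to 20.5 CPM in mitotic-low libraries. Of these, 7 markers were at 0, all globins among them. Globin genes include near-identical copies, so their 0 values cannot show whether erythroblasts were present. The 10 neutrophil markers summed to 0 to 9.15 CPM in mitotic-high and 1.47 to 14.8 CPM in mitotic-low libraries, with Ltf at 0. The 13 macrophage markers summed to 50.4 to 132 CPM in mitotic-high and 31.9 to 204 CPM in mitotic-low libraries. B and plasma cell markers summed to 103 to 164 CPM in mitotic-high and 93.5 to 187 CPM in mitotic-low libraries, most of it Cd79b, with Ms4a1, Pax5 and Igll1 among those at 0. T and NK markers summed to 157 to 387 CPM in mitotic-high and 160.4 to 405 CPM in mitotic-low libraries, with 9 of 13 at 0. Mature megakaryocyte markers summed to 73.9 to 278 CPM in mitotic-high and 59.7 to 194 CPM in mitotic-low libraries. Mast and basophil markers summed to 97.3 to 182 CPM in mitotic-high and 83.6 to 146 CPM in mitotic-low libraries. Gata2 made up most of that sum, with a mean of 100.5 CPM over the 13 libraries. Stroma and endothelium markers summed to 44.6 to 193 CPM in mitotic-high and 55.8 to 111 CPM in mitotic-low libraries. Emcn was the most abundant of these, with a mean of 62.7 CPM over the 13 libraries. Of the stroma and endothelium markers, 5 of 7 tested had a positive fold change, with a median of 0.81. Ranges of the 2 groups overlapped for each list.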

How the data were processed

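Polyadenylated RNA of 13 libraries was sequenced after Smart-seq+ amplification and Nextera XT preparation, per the labels' protocols. The deposited table holds raw counts per gene symbol; the authors used STAR, featureCounts, Trimmomatic and FastQC with build mm9, as the submitters' processing notes list them, and versions, strand mode and annotation are not given in the sources used here. Overlapping or antisense genes and near-identical copies (histone, tubulin, globin and interferon-induced GTPase genes) are therefore uncertain. Without molecular identifiers counts include PCR copies, and floors cover counting error only; 3 counts are 0.183 CPM in the shallowest library.

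The 92 ERCC rows were removed, which left 24015 gene rows. CPM was taken on column totals, and the 6 highest and 6 lowest libraries by score were compared. Counts were fitted with edgeR 4.0.16 in R 4.3.3 (filterByExpr, TMM, robust glmQLFit, glmQLFTest, class as covariate) and adjusted by the Benjamini-Hochberg method over all genes; the script was first tested on simulated data. The common biological coefficient of variation was 1.01. DESeq2 1.42.0 and limma-voom 3.58.1 were alternatives, with other scalings, filters, covariates, groupings and leave-one-out fits. Library measures were compared by two-sided exact permutation within class.

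The members, the gene lists and the alternatives were chosen with earlier results of these data known. Named genes were, outside the cell cycle lists, the 5 with the smallest p per direction, without gene models. In each cell cycle list they were drawn from the 3 most abundant members and the 2 with the smallest p. In other lists they were drawn from the 2 most abundant. Kit, Slamf1, Procr, Cd34, Flt3, Cd48 and Gata1 came from a separate list of 11 genes related to the sort. Ccne1, Ifi47, Iigp1, Bst2, Cited2 and Selp were named after their values were seen, as were the sentences on the middle library and on PEM-HSC replicates 3 and 5. No 2 libraries of a class agreed within sampling noise (lowest chi-square per degree of freedom 163). Promoter sequences are RefSeq's, build GRCm38.p6, matched by symbol. Some genes are not reported here.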

Additional observations from a re-analysis of the deposited data

Results flagged for a closer look

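Of 70 groups of values examined, 3 had a library far from the others; chance flags about 1 in 20. In mitotic-low libraries the mean of the chromosome structure list, relative to the mean of the 13 libraries, was 0.139 in PEM-HSC replicate 3, and the nearest library was at −0.379. In mitotic-high libraries the mean of the immediate early and stress list was −1.73 in MUL-HSC replicate 1, and the nearest library was at −0.0441; Fos had 24.6 CPM and Dusp1 108 CPM there, the lowest of the mitotic-high libraries. In mitotic-low libraries Aebp2 was at 4.12 on the log2(CPM + 1) scale in PEM-HSC replicate 2, and the nearest library was at 4.73.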

How the results depend on the processing

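Where edgeR called 0 genes in either direction, DESeq2 called 133 higher and 103 lower, 41 of them in the cell cycle lists. With the score as a continuous covariate over 13 libraries, 9 were called higher (all cell cycle genes, among them Cdca8, Ccnb2 and Asf1b) and 2 lower (Sesn1 and Tgtp2). The 12 fits that each left out a library called 0 to 2 genes higher and 0 lower; Rrm2 and Asf1b were the 2, without PEM-HSC replicate 3. The fit of the 5 highest against the 5 lowest libraries, chosen after seeing the data, called 2 higher, Bub1 and Asf1b. Replicate numbers did not pair the samples (correlations of same-numbered libraries −0.151 to 0.059), and with the replicate block 1 gene, Nusap1, was called higher. All other settings called 0. Spike-in scaling moved the median of all genes to 0.63; relative to it the cell cycle median was 0.91, and negative list medians turned positive unless read against that shift. Leaving out both MUL-HSC replicates 1 and 2 gave a cell cycle median of 0.91, and leaving out the PLT-HSC libraries gave 0.59; both were chosen after seeing the data too.

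The difference in detected genes, 46.7, became −18.3 at a minimum of 1 CPM, and ran from −31.8 to 183.6 over the fits that each left out a library, being −6.17, −17.0 and −14.6 without MUL-HSC replicate 4, PEM-HSC replicate 4 and MUL-HSC replicate 3. The spike-in difference ran from −0.65 (without MUL-HSC replicate 2) to −0.32 (without MUL-HSC replicate 4). PEM-HSC minus MUL-HSC score ran from −0.88 to 0.33, being 0.27, 0.31 and 0.17 without MUL-HSC replicates 1, 2 and 4. The cause of these changes was not tested.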
